A study of Mus musculus with 24 samples.

Results

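Cux1, Cux2, Rorb, Pou3f2, Pou3f3 and Lhx2 encode transcription factors of the projection neurons of cortical layers 2 to 4. They were chosen by symbol and make up 6 of the 45792 genes counted in the series. Messenger RNA was sequenced from primary cortical neurons of E16.5 mice after 12 days in culture. The neurons were wild type (WT) or H2BE-KO/mCherry-KI (KO), a line in which the histone variant gene H2be is knocked out and an mCherry reporter knocked in. Each genotype was left untreated (control) or given BDNF, brain-derived neurotrophic factor, for 30 min or for 24 h. This gives 6 groups of 4 libraries. The sources used here do not say how many embryos a culture pooled or which part of the H2be gene the knock-in allele keeps. The sample descriptions carry a code that the control, 30 min and 24 h libraries with the same genotype and replicate number have in common. They do not say what it stands for, and it is read here as the culture, so that WT cultures 1 to 4 and KO cultures 1 to 4 can each be followed over the 3 conditions. The comparisons bear on the series' question of how H2BE and BDNF act together on gene expression, here for genes that mark a neuronal subtype.

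Upper-layer neurons are the last projection neurons born in the developing cortex, and they connect cortical areas and the hemispheres with each other. Pou3f2 and Pou3f3 (also known as Brn2 and Brn1) are POU-domain factors that act in progenitors and in young neurons, where they promote the production and migration of upper-layer cells. Lhx2, a LIM-homeodomain factor, gives the cortical primordium its identity early and stays on in upper layers. Cux1 and Cux2, cut-homeodomain factors, shape the dendrites, spines and synapses of layers 2 and 3, and Cux2 is also found in some cortical interneurons. Rorb, a nuclear receptor of the ROR family, marks layer 4 and its sensory input zones. BDNF signals through the receptor kinase TrkB and switches on activity-regulated transcription factors of the CREB, AP-1 and EGR families.

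The sequence before the start site is shown here for Cux2 and Lhx2 (which were lower after 24 h of BDNF) and for Rorb (which was lower in KO). Cux1, which was higher in KO, is not shown, because all 250 bases before its start site are annotated exon. Whether these sequences have a part in the changes was not tested. The sequences come from RefSeq promoter windows on GRCm38.p6, the assembly named mm10 in the files' notes, and they stop at the base before the start site. Each is printed 5′ to 3′ on the strand of the gene, with capitals for a motif match. The Cux2 stretch is 164 bases at chr5:122049852-122050015 on the minus strand, inside an intron of a longer Cux2 transcript. The rest of its window overlaps an annotated exon. Cux2 and Lhx2 each have a further window that is not shown, because the bases just before its start site are annotated exon. The Lhx2 stretch is 250 bases at chr2:38339031-38339280 on the plus strand, upstream of the gene. Rorb has 2 windows, the first at chr19:19111197-19111446 upstream of the gene and the second at chr19:19001118-19001367 inside an intron of a longer Rorb transcript, both on the minus strand.
Cux2: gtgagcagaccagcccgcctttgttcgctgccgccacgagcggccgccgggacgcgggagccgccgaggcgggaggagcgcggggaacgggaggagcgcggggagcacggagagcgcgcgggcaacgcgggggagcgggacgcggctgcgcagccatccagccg
Lhx2: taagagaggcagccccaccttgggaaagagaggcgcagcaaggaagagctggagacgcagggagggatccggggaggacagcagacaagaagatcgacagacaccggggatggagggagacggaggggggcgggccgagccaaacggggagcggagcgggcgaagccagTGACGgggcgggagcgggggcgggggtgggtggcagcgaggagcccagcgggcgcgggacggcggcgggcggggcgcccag
Rorb first: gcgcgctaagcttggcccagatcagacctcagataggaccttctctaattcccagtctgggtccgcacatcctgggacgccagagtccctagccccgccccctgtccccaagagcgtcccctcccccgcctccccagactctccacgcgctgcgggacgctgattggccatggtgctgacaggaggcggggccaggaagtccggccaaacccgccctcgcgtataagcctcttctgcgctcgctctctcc
Rorb second: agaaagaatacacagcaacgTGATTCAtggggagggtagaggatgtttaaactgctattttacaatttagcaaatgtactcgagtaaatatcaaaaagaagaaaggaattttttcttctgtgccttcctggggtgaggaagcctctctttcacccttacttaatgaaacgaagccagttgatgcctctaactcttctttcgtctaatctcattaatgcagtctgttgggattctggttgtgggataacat

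All 6 genes had a RefSeq window, 9 windows of 300 bases in all, from 250 bases before the start site to 50 after it. The capitals mark the CRE core TGACG in the Lhx2 window, 81 bases before the start, and an AP-1 motif of the form TGANTCA in the second Rorb window, 230 bases before the start. Neither was found in any other window of the 6 genes. The CRE core is held by 20.8% of the 32851 promoter windows of this length and the AP-1 motif by 7.81%. No member window held the whole CRE (TGACGTCA, which contains the core; 1.79% of all windows), the EGR motif GCGTGGG (5.04%), the E-box CACGTG (7.15%), the octamer ATGCAAAT (1.74%), the homeodomain core TAATTA (5.29%) or the ROR core AGGTCA (16.3%). Both strands were searched, and a match is a description of letters, not of binding. The windows also differ in base composition: G and C make up 80.3% of the first Cux2 window, 74.7% of the first Lhx2 window, 63.7% of the first Rorb window and 41.0% of the second, beside a median of 52.7% over all windows.

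Library totals were 19780486 to 62135270 counts. Counts of the targeted gene, Hist2h2be, separated the genotypes, at 5.04 ± 0.53 CPM (counts scaled to a common library size with TMM factors, mean ± SD, n = 4) in WT control and 55.7 ± 4.58 in KO control. This does not check the deletion, since the retained part of the gene is not known. The library labelled KO 24 h replicate 4 stood between the genotypes at 21.2 CPM, while the other KO libraries were at 49.96 to 63.1. The share of mitochondrially encoded counts was 10.9% to 21.7% in KO culture 4 and 7.52% to 9.34% in KO culture 3, against 4.18% to 6.40% in WT and at most 5.77% in KO cultures 1 and 2. The part of this share in the genotype differences was not tested. KO 30 min replicate 3 was the shallowest library. WT culture 4 stood apart in cell type markers: the summed level of 14 GABAergic interneuron markers was 4072 to 4521 CPM in its 3 libraries, 1558 to 2400 in the other WT libraries and 2410 to 5052 in KO. Member values and list counts that these libraries move are also given with them left out. The neurons' own markers were present in all 24 libraries: Snap25, a synaptic protein, was at 670 CPM or more and Slc17a7, the vesicular transporter of cortical glutamatergic neurons, at 120 or more. In bulk RNA, fewer cells of a type and less RNA per cell cannot be told apart.

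All 6 genes were detected in all 24 libraries and passed the filter on low counts. Pou3f3 (ENSMUSG00000045515.3, chr1:42695768-42703176, plus strand, a single exon) had the highest level per length, 17.6 ± 2.55 CPM per kb of exon in WT control and 17.3 ± 1.77 in KO control, and its 4 libraries lay above those of the next gene in each of the 6 groups. Lhx2 (ENSMUSG00000000247.9, chr2:38339281-38369733, plus strand) came next in each group, at 7.04 ± 1.63 CPM per kb in WT control and 8.33 ± 1.57 in KO control. Cux2 (ENSMUSG00000042589.16, chr5:121856366-122050102, minus strand) and Cux1 (ENSMUSG00000029705.15, chr5:136248135-136567490, minus strand) followed at 3.55 ± 1.596 and 3.34 ± 0.58 CPM per kb in WT control, with ranges that overlapped each other and Lhx2 or Pou3f2. Pou3f2 (ENSMUSG00000095139.2, chr4:22482780-22488366, minus strand, a single exon) was at 2.64 ± 0.57 CPM per kb and Rorb (ENSMUSG00000036192.13, chr19:18930605-19111196, minus strand) at 1.93 ± 0.50 in WT control, where their ranges overlapped. In KO control the order from Cux2 down was firmer: Cux1 at 4.74 ± 0.34 lay above Pou3f2 at 3.25 ± 0.53, and Pou3f2 above Rorb at 0.51 ± 0.08 CPM per kb, without overlap. After 24 h of BDNF, Cux2 dropped to the last place in WT, at 1.73 ± 0.75 CPM per kb, with libraries that overlapped those of Pou3f2 at 2.002 ± 0.54. Lengths are of all annotated exons of a gene, so a gene that uses few of its exons reads too low on this scale.

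**Figure D1:**
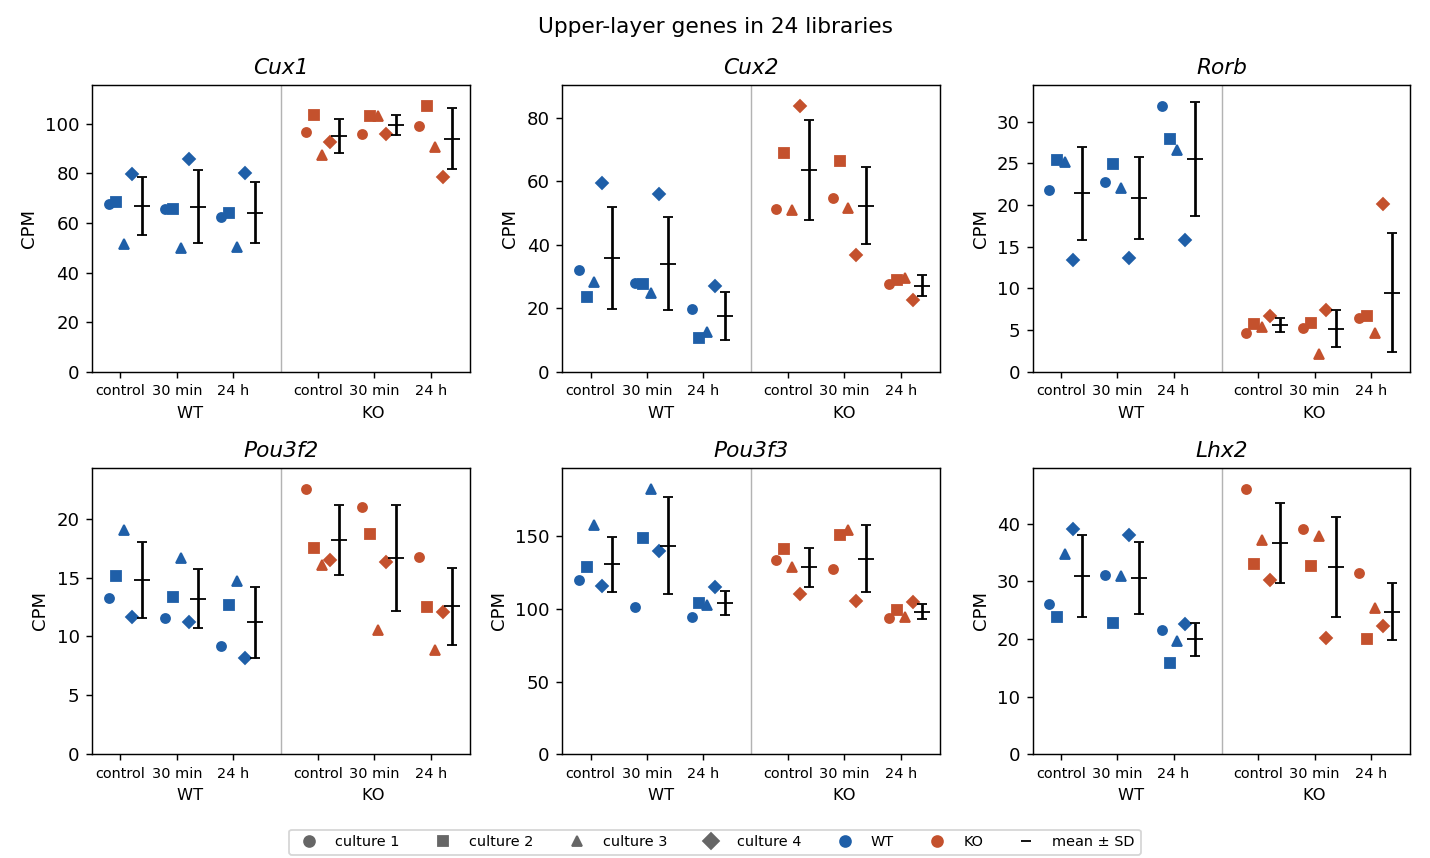
Level of each of the 6 upper-layer genes in CPM (y axis, from 0) in the 24 libraries, by genotype and BDNF condition (x axis); the marker shape gives the culture and the bar beside each group the mean ± SD of 4 libraries. Rorb stands at 13.4 CPM or more in WT and at 7.41 or less in KO, except for KO 24 h replicate 4 at 20.2, and Cux2 is lower at 24 h in both genotypes.

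Rorb was the member with the largest difference between the genotypes, and it was lower in KO. In WT control cultures 1 to 4 it stood at 21.8, 25.4, 25.1 and 13.4 CPM, and in KO control cultures at 4.67, 5.74, 5.44 and 6.74 CPM. The groups did not overlap, and within WT culture 4 stood below the other cultures. The log2 fold change of Rorb, KO over WT, was -1.93 ± 0.38 (SE; edgeR's quasi-likelihood test, Benjamini-Hochberg adjusted p = 0.000748), and the KO mean was 26.4% of the WT mean. In this comparison 10.1% of the 16777 genes tested were lower in KO and 11.3% higher. Leaving out each of the 8 libraries in turn kept the call for Rorb, at -2.10 to -1.84.

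Under BDNF the same order held. At 30 min the WT libraries were at 22.8, 25.0, 22.0 and 13.7 CPM of Rorb and the KO libraries at 5.30, 5.85, 2.16 and 7.41. At 24 h WT was at 31.9, 27.9, 26.6 and 15.8 CPM and KO at 6.41, 6.70, 4.71 and 20.2. The last value belongs to KO 24 h replicate 4, the library with the lower Hist2h2be level, and it alone among the KO libraries lies within the WT range. The log2 fold change of Rorb, KO over WT, was -1.998 ± 0.38 at 30 min (edgeR adjusted p = 0.000423) and -1.42 ± 0.37 at 24 h (edgeR adjusted p = 0.0117). Of all genes tested, 13.8% were lower in KO and 14.6% higher at 30 min, and 6.16% lower and 7.09% higher at 24 h. Without KO 24 h replicate 4 the 24 h difference was -2.11 (edgeR adjusted p = 6.26e-05), and without KO 24 h replicate 3 it was -1.21 and missed the threshold (edgeR adjusted p = 0.0515). Leaving out all of KO culture 4 together with KO 30 min replicate 3 gave -2.02 in control, -1.90 at 30 min and -2.09 at 24 h, each past the threshold. In that fit 15.5% of 17393 genes were lower in KO at 24 h and 15.7% higher. The call at 30 min was kept without any 1 of its 8 libraries, at -2.20 to -1.76.

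Cux1 was higher in KO under each of the 3 conditions, by a smaller step. In control cultures it stood at 67.6, 68.5, 51.5 and 79.7 CPM in WT and at 96.5, 103.3, 87.2 and 92.5 in KO. At 30 min it was at 65.4, 65.7, 49.8 and 85.6 CPM in WT and 95.8, 103.2, 102.9 and 96.0 in KO. At 24 h it was at 62.3, 64.2, 50.1 and 80.2 CPM in WT and 99.2, 107.0, 90.7 and 78.4 in KO. The groups did not overlap in control or at 30 min, and at 24 h KO culture 4 was below WT culture 4. Cux1 was higher in KO by 0.51 ± 0.15 in control (edgeR adjusted p = 0.0172), 0.58 ± 0.15 at 30 min (edgeR adjusted p = 0.00534) and 0.55 ± 0.15 at 24 h (edgeR adjusted p = 0.0162), or 142%, 149% and 146% of the WT level. The 30 min call was kept without any 1 of its 8 libraries. The control call was lost without WT replicate 3 (0.40, edgeR adjusted p = 0.0721), KO replicate 1 (0.47, adjusted p = 0.0507) or KO replicate 2 (0.43, adjusted p = 0.0656). The 24 h call was lost without WT replicate 1 (0.53, edgeR adjusted p = 0.0570), WT replicate 3 (0.44, adjusted p = 0.0776), KO replicate 1 (0.51, adjusted p = 0.0628) or KO replicate 2 (0.47, adjusted p = 0.0795). Without KO 24 h replicate 4 the 24 h difference was 0.62 (edgeR adjusted p = 0.00703). Leaving out KO culture 4 and KO 30 min replicate 3 gave 0.52 in control, 0.58 at 30 min and 0.63 at 24 h, each past the threshold.

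Cux2, the close relative of Cux1, had higher means in KO, but the difference missed the threshold under each condition. In control cultures it stood at 31.9, 23.5, 28.3 and 59.3 CPM in WT and at 51.2, 68.8, 50.9 and 83.6 in KO. WT cultures 1 to 3 were below all KO cultures, and WT culture 4 was within the KO range. The KO minus WT difference was 0.83 ± 0.30 in control (edgeR adjusted p = 0.0530), 0.62 ± 0.30 at 30 min (edgeR adjusted p = 0.131) and 0.63 ± 0.30 at 24 h (edgeR adjusted p = 0.185). DESeq2 called the control difference (0.82, adjusted p = 0.0335) but not those at 30 min (0.61, adjusted p = 0.122) or 24 h (0.63, adjusted p = 0.141). When KO culture 4 and KO 30 min replicate 3 were left out, the difference passed under no condition in edgeR. It was 0.67 in control (adjusted p = 0.125), 0.84 at 30 min (adjusted p = 0.0907) and 0.72 at 24 h (adjusted p = 0.103). Without the 3 libraries of WT culture 4, a choice made after seeing the data, the difference passed in edgeR under each condition. It was then 1.17 (adjusted p = 0.00101), 0.95 (adjusted p = 0.00373) and 0.91 (adjusted p = 0.0112). Without WT control replicate 4 alone the control difference was 1.19 (edgeR adjusted p = 0.00787), and without WT 30 min replicate 4 alone the 30 min difference was 0.95 (edgeR adjusted p = 0.0248).

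The POU factors and Lhx2 did not pass between the genotypes under any condition. Pou3f3 stood at 119, 129, 157 and 116 CPM in WT control and at 133, 141, 128 and 110 in KO control, a difference of -0.02 with a 95% interval of -0.31 to 0.27. Pou3f2 was at 13.3, 15.1, 19.1 and 11.6 CPM in WT control and 22.5, 17.5, 16.1 and 16.51 in KO control, a difference of 0.30 with an interval of -0.16 to 0.76. Lhx2 was at 26.1, 23.8, 34.7 and 39.0 CPM in WT control and 46.0, 33.0, 37.1 and 30.3 in KO control, a difference of 0.24 with an interval of -0.18 to 0.67. The interval of Pou3f3 leaves room for little change in either direction, while those of Pou3f2 and Lhx2 reach values as large as the Cux1 difference. At 30 min and 24 h the differences of these 3 genes were between -0.09 and 0.34.

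**Figure D2:**
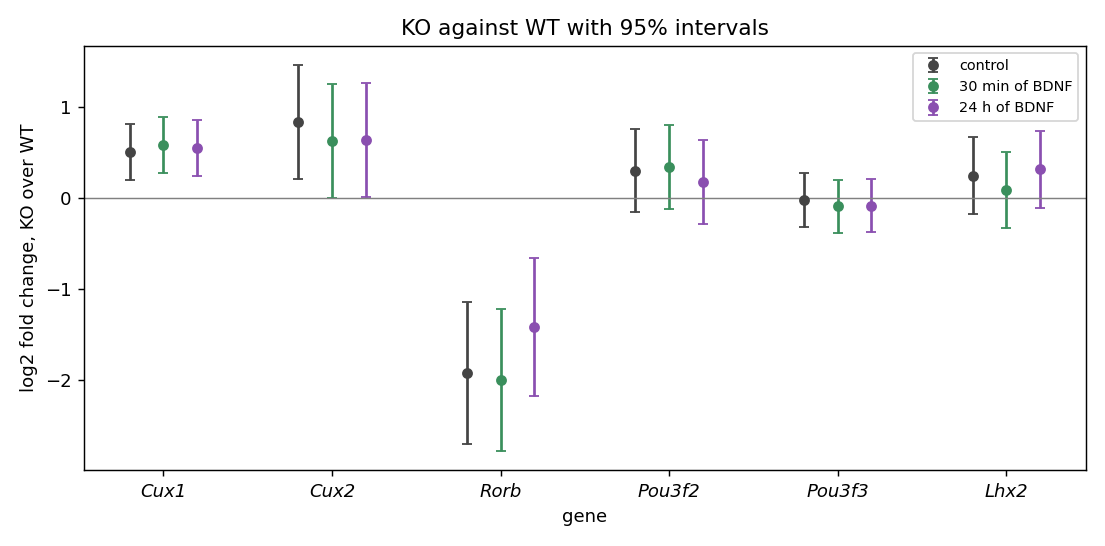
KO over WT on the log2 scale (y axis) for each of the 6 genes (x axis) in control cultures and after 30 min and 24 h of BDNF; points are fitted log2 fold changes and bars their 95% intervals. Rorb lies between -1.998 and -1.42, Cux1 between 0.51 and 0.58, and the intervals of Pou3f2, Pou3f3 and Lhx2 include 0.

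The library descriptions number their controls as 1 (WT cultures 1 and 2, KO culture 1) or 2 (WT cultures 3 and 4, KO cultures 2 to 4), and they do not say what this number stands for. Within these numbering sets the mean log2 difference of Rorb between KO and WT control was -2.32 in set 1 and -1.62 in set 2, of Cux1 0.50 and 0.55, and of Cux2 0.90 and 0.70. The sign was the same in both sets for these genes at 30 min and 24 h too, where Rorb was at -2.16 and -1.92, then -2.21 and -1.25. Lhx2 differed in sign between the sets in control, at 0.88 and -0.14, and at 30 min, at 0.56 and -0.23, and so did Pou3f3, at 0.10 and -0.10 in control and 0.05 and -0.25 at 30 min. Set 1 holds 1 KO library per condition. In set 2 alone none of the 6 genes passed between the genotypes: Rorb gave -1.70 in control (edgeR adjusted p = 0.117), -1.80 at 30 min (0.0771) and -1.01 at 24 h (0.618).

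Interneuron, glutamatergic and astrocyte markers differed between the genotypes, in comparisons where 11.3% of all genes tested were higher in KO control and 10.1% lower. In control cultures 7 of the 14 interneuron markers were higher in KO and none lower in edgeR at adjusted p under 0.05, with a median log2 difference of 0.92 beside 0.03 over all genes tested. At 30 min 7 were higher, beside 14.6% over all genes, and at 24 h 3, beside 7.09%. When KO culture 4 and KO 30 min replicate 3 were left out, 6 were higher at 24 h, beside 15.7% over all genes. The summed level of these 14 genes was 1616 to 4072 CPM in WT control and 3346 to 4871 in KO control. Npy, a neuropeptide, was higher by 2.90 ± 0.34, Pvalb, a calcium-binding protein, by 2.13 ± 0.75 and Slc32a1, the vesicular GABA transporter, by 1.33 ± 0.36, while the defining enzyme Gad1 was at 383 CPM or more in all libraries and Pvalb and Vip were at 0 in 2 and 3 libraries. Of the 11 cortical glutamatergic markers 1 was higher and 5 lower in KO, among them Tbr1 (-1.88 ± 0.30), Emx1 (-1.40 ± 0.29) and Neurod2 (-1.11 ± 0.19), and their sum was 1858 to 2000 CPM in WT control and 1204 to 1618 in KO control. Tbr1 of this list is also counted among the deep-layer genes. Of 13 tested astrocyte markers 3 were lower in KO, with sums of 785 to 870 CPM in WT control and 378 to 599 in KO control, and Gfap and Aqp4 were at 0 in 2 libraries and 1 library. Of 7 tested microglial markers 1 was higher in KO control, with a sum of 1.14 to 1.65 CPM in WT control and 2.03 to 7.70 in KO control, and Tmem119 was at 0 in 16 libraries and P2ry12 in 14. Of 8 tested oligodendrocyte markers 1 was lower, with sums of 48.0 to 59.0 and 29.7 to 50.9 CPM. Of 9 tested endothelial and mural markers 1 was higher, with sums of 51.9 to 114 and 57.2 to 83.9 CPM, and Cldn5 was at 0 in 12 libraries. A single marker of 7, 8 or 9 is near the share over all genes. The 12 pan-neuronal markers summed to 9543 to 10081 CPM in WT control and 8620 to 9258 in KO control, without overlap, and 5 of them were lower and 1 higher in KO.

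Within WT, Rorb, Cux1 and Cux2 also lay in the KO direction in the culture with the highest interneuron level. WT culture 4 had an interneuron sum of 4072 CPM in control, the lowest Rorb (13.4 CPM) and the highest Cux1 (79.7) and Cux2 (59.3) of the 4 WT controls. KO 24 h replicate 4 had the lowest interneuron sum of the KO libraries, 2410 CPM, and the highest Rorb (20.2 CPM). Its Cux1 (78.4 CPM) and Cux2 (22.6) were the lowest of the KO libraries. Cux2 was lower at 24 h in each KO culture, and the other KO 24 h libraries were at 27.7 to 29.6 CPM of Cux2. That library also stood apart in a summed level of 20 deep-layer genes, at 1082 CPM where the other KO 24 h libraries were at 521 to 580. Rorb was lower in each KO library other than KO 24 h replicate 4 than in WT culture 4. Other libraries did not follow one order. WT control culture 3 had a higher interneuron sum (2218 CPM) than WT control cultures 1 and 2, yet the lowest Cux1 of the WT controls (51.5). Among the KO controls, culture 4 had the lowest sum (3346 CPM), with the highest Rorb (6.74) but also the highest Cux2 (83.6). KO control culture 3 had the highest sum (4871 CPM) and the lowest Cux2 (50.9). The part of these markers in the genotype differences was not tested.

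**Figure D3:**
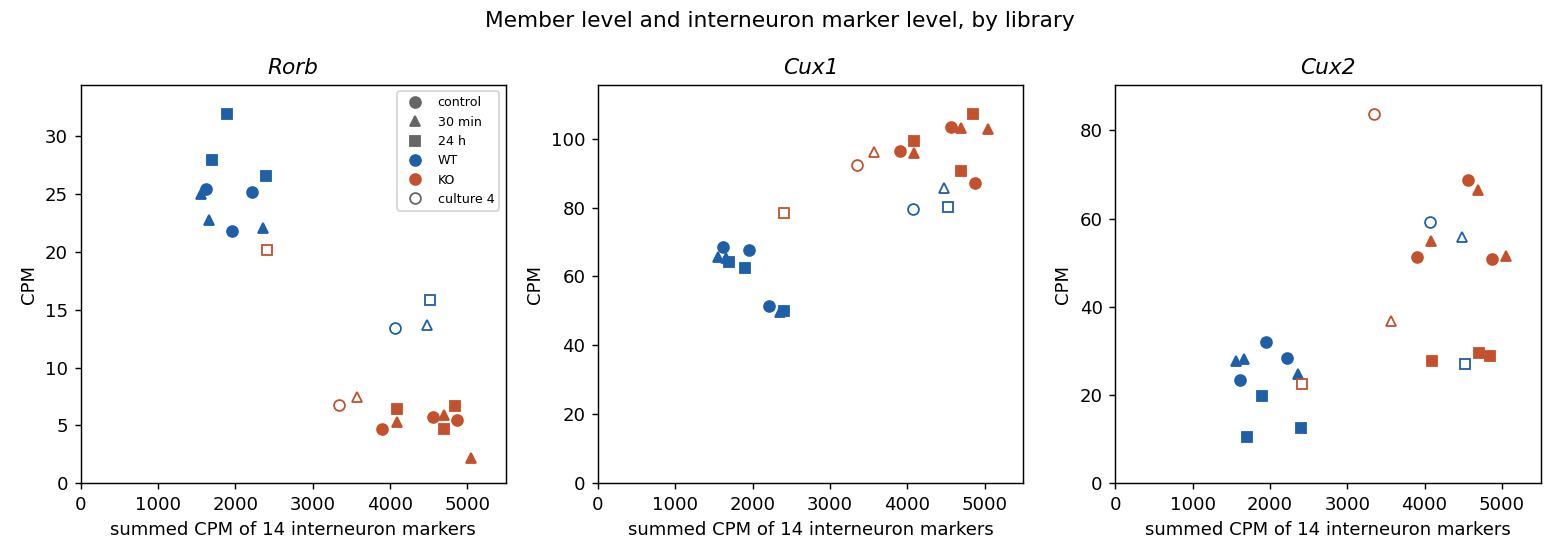
Level of Rorb, Cux1 and Cux2 in CPM (y axis) against the summed CPM of 14 interneuron markers (x axis) in the 24 libraries; colour gives the genotype, shape the condition, and hollow symbols are culture 4. WT culture 4 lies at 4072 to 4521 on the x axis beside the KO libraries, and KO 24 h replicate 4 lies at 2410 near the other WT cultures.

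Cux2 was lower after 24 h of BDNF in both genotypes. In WT it went from 31.9, 23.5, 28.3 and 59.3 CPM in the controls of cultures 1 to 4 to 19.9, 10.6, 12.4 and 27.0, and in KO from 51.2, 68.8, 50.9 and 83.6 to 27.7, 28.8, 29.6 and 22.6. Each of the 8 cultures was lower after BDNF, and in KO the control and 24 h groups did not overlap. Cux2 fell by 1.03 ± 0.31 in WT (edgeR adjusted p = 0.0197) and by 1.23 ± 0.31 in KO (edgeR adjusted p = 0.0187), leaving 48.9% and 42.7% of the control level. Genes called lower at 24 h were 9.13% of all tested in WT and 2.7% in KO, with 9.55% and 2.91% called higher. Within cultures the log2 change was -1.18 to -0.68 in WT and -1.89 to -0.78 in KO. With the culture as a block, which compares each 24 h library with the control of its own culture, Cux2 passed in both genotypes. The change was -1.03 in WT (edgeR adjusted p = 0.000102) and -1.23 in KO (7.85e-05). In the fit without the culture, single libraries decided the threshold. The WT call was lost without WT 24 h replicate 2 (-0.86, edgeR adjusted p = 0.0785), WT 24 h replicate 3 (-0.91, adjusted p = 0.0734) or WT control replicate 4 (-0.67, adjusted p = 0.137). It was kept without all of WT culture 4 (-0.96, edgeR adjusted p = 0.00898). The KO call was lost without KO control replicate 4 (-1.07, edgeR adjusted p = 0.0703), KO 24 h replicate 1 (-1.23, adjusted p = 0.0539), or KO control or KO 24 h replicate 2 (-1.17 and -1.25, adjusted p = 0.0502 each), and when KO culture 4 and KO 30 min replicate 3 were left out together (-0.98, adjusted p = 0.0885).

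Lhx2 was lower after 24 h of BDNF in all 8 cultures. In WT the 24 h libraries were at 21.5, 15.9, 19.7 and 22.6 CPM, all below the lowest control at 23.8, and in KO they were at 31.4, 20.05, 25.3 and 22.2, where culture 1 overlapped the controls. Lhx2 fell in WT by 0.63 ± 0.20 (edgeR adjusted p = 0.0323), and the change in KO was -0.57 ± 0.20 (edgeR adjusted p = 0.112). The WT call was lost without WT 24 h replicate 1 (-0.68, edgeR adjusted p = 0.0508), WT 24 h replicate 2 (-0.55, adjusted p = 0.118), WT 24 h replicate 3 (-0.64, adjusted p = 0.0747), WT control replicate 3 (-0.57, adjusted p = 0.0869) or WT control replicate 4 (-0.50, adjusted p = 0.131), and without all of WT culture 4 (-0.56, adjusted p = 0.128). With the culture as a block, Lhx2 was called in both genotypes, at -0.62 in WT (edgeR adjusted p = 0.00023) and -0.56 in KO (0.00157). In KO cultures 1 to 3, which leave out the KO 24 h library that stands apart, Lhx2 was lower by culture at -0.55, -0.72 and -0.55.

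The POU factors had smaller changes of the same sign. Pou3f2 went to 9.19, 12.7, 14.7 and 8.21 CPM in WT at 24 h and to 16.8, 12.5, 8.85 and 12.1 in KO. Pou3f3 went to 94.0, 104, 103 and 115 CPM in WT and to 93.7, 98.9, 94.5 and 105 in KO, in each genotype below all 4 controls. Pou3f2 changed by -0.40 ± 0.22 in WT (edgeR adjusted p = 0.239) and -0.53 ± 0.22 in KO (edgeR adjusted p = 0.185), and Pou3f3 by -0.33 ± 0.14 (edgeR adjusted p = 0.114) and -0.39 ± 0.14 (edgeR adjusted p = 0.114), so neither passed in the fit without the culture. With the culture as a block both passed in both genotypes: Pou3f2 at -0.41 in WT (edgeR adjusted p = 0.00460) and -0.56 in KO (0.00107), and Pou3f3 at -0.32 in WT (edgeR adjusted p = 0.0317) and -0.38 in KO (0.0207). In that fit 4 of the 6 genes (Cux2, Lhx2, Pou3f2 and Pou3f3) were called lower in each genotype, where 15.7% of all genes were lower in WT and 8.59% in KO. Without the block the counts were 2 of 6 in WT and 1 of 6 in KO, and the median log2 change of the 6 genes was -0.36 in WT and -0.46 in KO, beside -0.01 and -0.03 over all genes tested. Pou3f3 in WT also passed when only the WT control and 24 h libraries were fitted (-0.34, edgeR adjusted p = 0.0283), and in KO with KO culture 4 and KO 30 min replicate 3 left out (-0.48, edgeR adjusted p = 0.0462). With those libraries left out, Cux2 (-0.98), Lhx2 (-0.59) and Pou3f2 (-0.55) missed the threshold in KO (edgeR adjusted p = 0.0885, 0.0846 and 0.172). The fit with the block was not run without them.

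Cux1 and Rorb did not pass at 24 h in either genotype or with the block. Cux1 changed by -0.06 in WT and -0.02 in KO, with 95% intervals of -0.36 to 0.25 and -0.32 to 0.29, so the pair of cut-homeodomain genes differed in their values after BDNF. Rorb had a higher mean at 24 h, by 0.25 ± 0.36 in WT (edgeR adjusted p = 0.703) and 0.76 ± 0.37 in KO (edgeR adjusted p = 0.270). Within cultures Rorb was higher at 24 h in all 4 WT cultures, by 0.08 to 0.55, and in 3 of 4 KO cultures, by up to 1.57 in culture 4. Without KO 24 h replicate 4 the KO value was 0.09. Beside these changes, 3 of the 11 glutamatergic markers fell and 1 rose at 24 h in WT, where their summed level was 1289 to 1565 CPM, and 1 fell and 1 rose in KO, at 1088 to 1306 CPM. Over all genes 9.13% fell and 9.55% rose in WT, and 2.7% fell and 2.91% rose in KO. When KO culture 4 and KO 30 min replicate 3 were left out, 6 of the 11 markers fell in WT and 3 in KO, and 1 rose in each. In that fit 2775 of 17393 genes fell and 2789 rose in WT, and 4.84% fell and 4.6% rose in KO. Of the 14 interneuron markers 1 rose in WT and none passed in KO. The part of these markers in the BDNF changes was not tested.

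**Figure D4:**
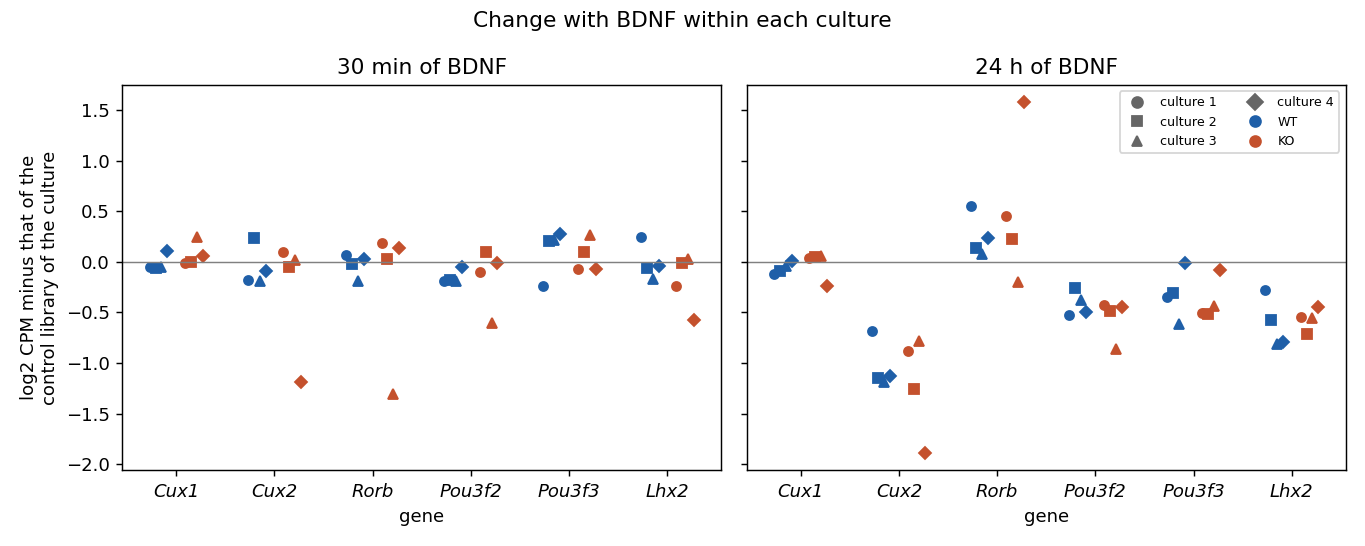
Change in log2 CPM from the control library of the same culture (y axis) for each of the 6 genes (x axis) after 30 min (left) and 24 h (right) of BDNF, with 1 point per culture. At 24 h Cux2, Lhx2, Pou3f2 and Pou3f3 lie below 0 in 8 of 8 cultures, and Rorb in KO culture 4 stands at 1.57.

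BDNF for 30 min called none of the 6 genes in either genotype (edgeR adjusted p = 1 in WT and 0.9999 in KO), and none had an unadjusted p under 0.05 in edgeR or in DESeq2. Few genes were called at this time at all, 0.37% of those tested in WT and 0.125% in KO. Fitted changes of the 6 genes were -0.16 to 0.13 in WT and -0.28 to 0.07 in KO. Single KO libraries stood out within their cultures, with Cux2 at 36.7 CPM in KO 30 min replicate 4 after 83.6 in its control, and Rorb at 2.16 CPM in KO 30 min replicate 3 after 5.44. The other KO cultures changed Cux2 by -0.05 to 0.10.

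The difference between the genotypes in the BDNF response passed for none of the 6 genes at either time (edgeR adjusted p = 1), with none at an unadjusted p under 0.05 in edgeR or DESeq2. Genes called for such a difference were 0.0477% of all tested at 30 min and 0.0358% at 24 h. At 24 h the KO minus WT difference was -0.20 for Cux2, with a 95% interval of -1.08 to 0.69, and 0.51 for Rorb, with an interval of -0.55 to 1.57. The Rorb value turned sign without KO 24 h replicate 4, to -0.17, and was -0.07 when KO culture 4 and KO 30 min replicate 3 were left out. For Cux1, Pou3f3 and Lhx2 it was between -0.06 and 0.07, and for Pou3f2 -0.13. These intervals leave room for differences in the response of Cux2 and Rorb of about 1 on the log2 scale.

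Other genes of upper-layer neurons did not share one pattern with the 6 members. Of 24 such genes, 2 rose and 8 fell at 24 h in WT and 1 rose and 4 fell in KO, with median changes of -0.21 and -0.17. Over all genes 9.55% rose and 9.13% fell in WT and 2.91% and 2.7% in KO, so the number that rose is near the share over all genes. In WT, Bhlhe22, a basic helix-loop-helix factor, fell by 1.12 ± 0.26 and Dtx4, a Notch pathway ubiquitin ligase, by 1.05 ± 0.14, while Inhba, a subunit of the ligand activin, rose by 1.10 ± 0.38. In KO, Bhlhe22 fell by 0.92 ± 0.26 and Dtx4 by 0.85 ± 0.13, and Mdga1, a cell adhesion molecule of layers 2 and 3, rose by 0.90 ± 0.26. Between the genotypes in control 10 of the 24 were lower in KO and 4 higher, with a median of -0.44 beside 0.03 over all genes tested, of which 10.1% were lower and 11.3% higher. Nrgn, a calmodulin-binding protein of spines, was at a log2 fold change of -2.04 ± 0.25, Mdga1 at -1.73 ± 0.27 and Bhlhe22 at -1.34 ± 0.26. At 30 min 10 were lower and 3 higher, beside 13.8% and 14.6% over all genes. At 24 h 8 were lower and 3 higher, beside 6.16% and 7.09%. The summed level of the 24 genes was 2557 to 2697 CPM in WT control, 1940 to 2075 in WT at 24 h and 1916 to 2171 in KO control. Cux1 thus lay on the side of the smaller number of upper-layer genes, and Rorb on that of the larger. The smaller number was near the share over all genes at 30 min.

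Deep-layer genes were mostly lower in KO. Of 20 genes of layers 5 and 6, 16 were lower in KO control, 17 at 30 min and 10 at 24 h, and none were higher, with medians of -1.22, -1.23 and -0.76, beside 10.1%, 13.8% and 6.16% lower over all genes. When KO culture 4 and KO 30 min replicate 3 were left out, 17, 16 and 15 were lower and 0, 0 and 1 higher, with a median of -0.94 at 24 h. Ldb2, a LIM-domain binding factor of corticospinal neurons, was at a log2 fold change of -2.75 ± 0.39 in control, Foxp2, a forkhead factor of layer 6, at -2.64 ± 0.60, and Hs3st4, a heparan sulphate sulphotransferase, at -2.31 ± 0.34. After 24 h of BDNF 3 of the 20 fell in WT, Ldb2 (-1.24 ± 0.37), Crym (-1.24 ± 0.34) and Wnt7b, a secreted ligand (-1.01 ± 0.19), beside 9.13% lower over all genes. In KO, Etv1, an ETS factor of layer 5, rose by 0.88 ± 0.25 and Wnt7b fell by 0.73 ± 0.19, beside 2.91% higher and 2.7% lower over all genes. With KO culture 4 and KO 30 min replicate 3 left out, none rose and 4 fell in KO. Over all genes 4.6% rose and 4.84% fell in KO in that fit. Whether the layers' genes differ from each other was not tested.

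**Figure D5:**
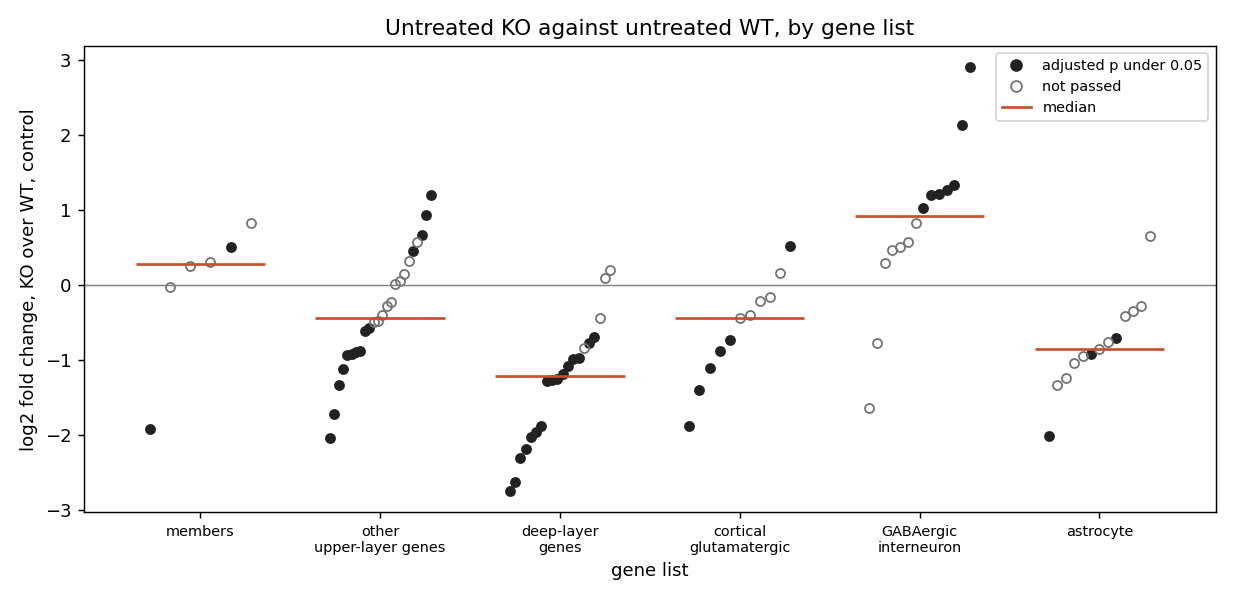
Log2 fold change of untreated KO over untreated WT (y axis) for the genes of 6 lists (x axis), 1 point per gene, filled where the adjusted p is under 0.05, with the list's median as a line. The 6 members have 1 gene lower (Rorb) and 1 higher (Cux1), 16 of 20 deep-layer genes are lower and 7 of 14 interneuron markers are higher.

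Relatives and partners of the 6 factors were counted in a list of 21 genes, of which 19 passed the filter. At 24 h in WT 2 rose and 2 fell, near the 9.55% and 9.13% over all genes. Pou3f1, the paralogue of Pou3f2 and Pou3f3, rose by 0.76 ± 0.21, Lmo2 rose by 1.09 ± 0.20, and Lmo1 fell by 0.92 ± 0.26. Lmo1 and Lmo2 encode LIM-only proteins that compete for the cofactors of LIM-homeodomain factors such as Lhx2. In KO, Lmo1 fell by 1.10 ± 0.27 and no gene of the list rose. Of the 20 tested when KO culture 4 and KO 30 min replicate 3 were left out, 5 rose and 2 fell in WT and 2 fell in KO, in a fit where 2789 of 17393 genes rose and 2775 fell in WT and 4.84% fell in KO. Between the genotypes in control 4 were higher and 4 lower in KO, beside 11.3% and 10.1% over all genes, with Lmo2 higher by 1.71 ± 0.21 and the LIM-homeodomain genes Lhx9 at -3.48 ± 0.88 and Lhx1 at -2.30 ± 0.72. Both LIM-homeodomain genes were at low levels: Lhx9 was at 1.83 CPM or less and at 0 in 4 libraries, and Lhx1 at 5.45 or less and at 0 in 1 library. Of 16 markers of progenitors, where Pou3f2, Pou3f3 and Lhx2 are also active, only Vim rose at 24 h, by 1.52 ± 0.25 in WT and 1.43 ± 0.25 in KO, and none fell. Their summed level was 127 to 304 CPM in WT control and 98.6 to 140 in KO control.

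Over the 24 libraries the genes closest in profile were found for each member by the root mean square difference of log2 CPM after centring, among 12044 genes with a mean of at least 1 CPM. For Rorb these were Tox (0.33), Tbr1 (0.38) and Neto2 (0.39), where Rorb itself varied by 1.09. For Cux2 they were Lama5 (0.32), Manba (0.34) and Dglucy (0.35), with 0.74 for Cux2 itself. For Cux1 they were Epb41l3 (0.14), Epb41l2 (0.14) and Dynll2 (0.15), with 0.34 for Cux1 itself. Lhx2 was closest to Slc41a1 (0.21), Flrt1 (0.22) and Magi1 (0.22), Pou3f2 to Dedd2 (0.22), Fbn2 (0.23) and Kcnd2 (0.25), and Pou3f3 to Dusp8 (0.15), Ubald1 (0.15) and Tmem143 (0.16), where the members themselves varied by 0.39, 0.38 and 0.27. None of the 6 members was among the 3 closest genes of another. Tbr1, the closest layer gene to Rorb, is a factor of layer 6.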

How the data were processed

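The table the authors deposited holds raw read counts, whole numbers for each gene in each library, from polyadenylated RNA sequenced with a stranded TruSeq mRNA kit, per the labels. The submitters' processing notes name STAR 2.7.9a, mm10, DESeq2 1.38.3, limma 3.54.2 and edgeR 3.40.2, with no role for each. The sources used here give neither the counting program nor its strand setting or annotation, so reads of antisense or overlapping genes cannot be told apart. Genes that overlap a member had 2562 counts at most (AC122898.1, in the span of Pou3f3, which had 126052).

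Symbols came from GENCODE M21 for 45229 of 45792 genes, and 563 unnamed genes took 0.066% of all counts. Depth was 19780486 to 62135270 counts per library. Counts were tested in R 4.3.3 with edgeR 4.0.16: filterByExpr (count of 10, total of 15), TMM, 1 quasi-likelihood model of 6 group means over all 24 libraries (18 residual degrees of freedom, biological coefficient of variation 23.5%), Benjamini-Hochberg adjustment over 16777 genes and a threshold of 0.05. Standard errors came from each log2 fold change and its F statistic. Log2 CPM used a prior count of 2. The fits were checked on simulated counts. Alternatives were DESeq2 1.42.0, RLE scaling, no filter, the compared groups only, libraries left out, the numbering set, and a block for the culture or replicate number. Leaving out WT culture 4, and the list counts without KO culture 4 and KO 30 min replicate 3, were chosen after seeing the data.

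After removing the group means, libraries with the same code had correlations of 0.046 to 0.46, and 22 of 24 pairs were over 0.1. The code is read as pairing libraries within a genotype, although the labels do not explain it. Blocked values are given where they change a call, and for Cux2 and Lhx2 at 24 h. Promoter windows came from a RefSeq table on GRCm38.p6 and exons from GENCODE M21. The members, the lists and the tests were chosen with earlier results of these data known. Beside the members, list genes named with a change are among the 3 with the largest change past the threshold in that list and comparison, the 3 closest in profile per member, and Hist2h2be, with background markers named for their level only.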

Additional observations from a re-analysis of the deposited data

Results flagged for a closer look

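In 36 groups of 4 libraries (6 genes in 6 groups), the gap between the most extreme library and its nearest neighbour, as a share of the group's range, passed Dixon's 95% critical value in 2, where chance flags about 1 group in 20. Cux2 in WT 30 min replicate 4 stood at 55.9 CPM, where the other 3 libraries were at 24.7 to 28.1 (gap share 0.893). The control and 24 h libraries of the same culture also had the highest Cux2 of their groups, at 59.3 and 27.0 CPM. Rorb in KO 24 h replicate 4 stood at 20.2 CPM, where the other 3 were at 4.71 to 6.70 (gap share 0.871). The same library had 21.2 CPM of Hist2h2be and a deep-layer sum of 1082 CPM, and the part of these in its Rorb level was not tested.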

How the results depend on the processing

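Under the alternatives no member value that was called in either fit changed sign. Of 1002 such values, 31 lost and 15 gained a call, and 79 changed sign where neither fit called them, all of size 0.51 or less in the reported fit. The number of the 6 genes called fell to 0 with numbering set 2 alone in WT at 24 h (from 2), in KO at 24 h (from 1) and for KO against WT in control, at 30 min and at 24 h (from 2 each), where fewer libraries were fitted. With the replicate block (culture) it rose to 4 in WT and 4 in KO at 24 h. Without WT culture 4 it was 1 in WT at 24 h and 3 for KO against WT under each condition. Leaving out 1 library at a time gave 0 to 2 in WT at 24 h, 0 to 1 in KO at 24 h, 1 to 3 for KO against WT in control and 1 to 2 at 24 h. With the replicate number as a block between genotypes, where same-numbered libraries shared only a number (correlations -0.12 to 0.05 in 36 pairs), Cux2 passed in control (0.87, edgeR adjusted p = 0.0198) and at 30 min (0.73, adjusted p = 0.0412). The block changed no other call. With 4 libraries per group the standard errors of the 6 genes were 0.14 to 0.38 on the log2 scale for comparisons of 2 groups. For the difference between the genotypes in the BDNF response they were 0.20 to 0.52. Changes of 0.83 ± 0.30 (Cux2, KO against WT control) and -0.57 ± 0.20 (Lhx2, KO at 24 h) missed the threshold, so changes of 2 standard errors or more can go uncalled.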
